A study of Homo sapiens with 40 samples.

Results

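DPAGT1, the enzyme that tunicamycin blocks, and 9 subunits of the oligosaccharyltransferase were followed in U87 cells, an established human glioblastoma line. The 10 genes were taken from a list of names, with every probe set assigned to them, 20 of 54715. Each gene was read from its brightest probe set by mean signal, which gives 10 of 19774 genes, and all 10 passed the filter on dim signals. Stable lines carried an empty vector (EV), WT IRE1, 1 of the variants S769F, Q780*, P336L and A414T, or IRE1-DN, a dominant negative form, on top of the IRE1 that U87 cells make themselves. IRE1 is the ER stress sensor that splices XBP1 mRNA. S769F and Q780* lie in the cytosolic kinase domain and P336L and A414T in the luminal domain. Each of the 7 lines was left untreated (basal conditions) or spent 16 h in tunicamycin (0.5 µg/ml). This makes 14 groups of 3 arrays, except that both IRE1-DN groups hold 2, and 40 arrays in all, each with 6 µg of total RNA. WT IRE1 and the variants were expressed from a CMV promoter in a vector that also carries puromycin resistance and GFP, and the EV cells carry the same vector without an insert. The paper's methods describe polyclonal, puromycin-selected populations, whereas the labels give each variant line a clone number, so that a line's difference from EV cells and that of a clone cannot be told apart. The paper's methods name EV, WT IRE1 and the variants as cells made with this vector and do not name IRE1-DN, so EV may not be the matched control of IRE1-DN. The labels call the replicates biological and do not say whether they were grown apart, so the p-values cover only the spread among these arrays, which may be technical.

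N-glycosylation begins on the cytosolic face of the ER membrane, where DPAGT1 joins N-acetylglucosamine phosphate to dolichol phosphate. The ALG enzymes then build the oligosaccharide on this lipid, and the oligosaccharyltransferase moves it to asparagine residues of nascent proteins. The transferase exists as a pair of complexes. STT3A and STT3B are their catalytic subunits, and RPN1, RPN2, DDOST and DAD1 are shared by both. OSTC belongs to the STT3A complex, which acts while the chain is being translocated, and TUSC3 or MAGT1, thioredoxin-like oxidoreductases, belong to the STT3B complex, which reaches sites that STT3A has skipped. Tunicamycin empties the pathway of lipid-linked oligosaccharide, and the unglycosylated proteins that follow stress the ER.

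Of 7 markers of glioma cells, VIM, CD44, S100A6, SPARC and TNC exceeded the 40th percentile of signals on 40 of 40 arrays and NES on 37, while GFAP, the astrocytic filament, exceeded it on 2. Of the leukocyte and endothelial markers, PTPRC, CD14 and CDH5 exceeded it on 0 of 40 arrays, CD3E on 25, VWF on 33, and CD68 and PECAM1 on 40. HSPA5, DDIT3 and XBP1, classical ER stress genes, rose on tunicamycin in each of the 7 lines, by 0.81 to 1.10, 2.59 to 3.92 and 0.91 to 1.73 on the log2 scale. Basal DDIT3 was already higher than in EV cells in WT (1.10), S769F (0.97), Q780* (0.97) and P336L cells (0.94, highest adjusted p = 0.02 from limma). Basal XBP1 was lower than in EV cells in IRE1-DN cells (-0.37, adjusted p = 0.0128 from limma). ERN1, which encodes IRE1, did not differ from EV cells under basal conditions in WT IRE1 cells or the variants (-0.02 to 0.33), and was -1.05 against them in IRE1-DN cells (adjusted p = 0.0039 from limma). On tunicamycin ERN1 rose in every line but A414T, where its change of 0.47 did not pass (adjusted p = 0.164 from limma). Where the ERN1 probe set lies in the transcript was not known here, so it does not check the labels of the lines. The difference between the 3′ and 5′ probe sets of ACTB, a sign of RNA integrity, was 1.07 to 2.32 (median 1.58) on the basal arrays and 1.39 to 2.21 (median 1.87) on the tunicamycin arrays. It was lowest on the basal IRE1-DN arrays, at 1.07 and 1.08, against 1.76 to 2.03 on the basal EV arrays.

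The promoters of members that rise together are shown first. RefSeq windows of 300 bases on GRCh38.p14, from 250 before to 50 after the start site, were found for 7 of the 10 genes, with 8 windows because MAGT1 has 2 start sites. STT3B, RPN1 and TUSC3 were not in the table. Below stand the windows of DPAGT1, the drug's target, of MAGT1 and DDOST, which rose on tunicamycin, and of OSTC, which differed most steadily from EV cells. Capitals mark every CCAAT and CCACG on either strand, the ends of the ER stress response element. DPAGT1 is read from chr11:119101804-119102103, MAGT1 from chrX:77895386-77895685 and DDOST from chr1:20661320-20661619, each on the minus strand, and OSTC from chr4:108650349-108650648 on the plus strand.
DPAGT1: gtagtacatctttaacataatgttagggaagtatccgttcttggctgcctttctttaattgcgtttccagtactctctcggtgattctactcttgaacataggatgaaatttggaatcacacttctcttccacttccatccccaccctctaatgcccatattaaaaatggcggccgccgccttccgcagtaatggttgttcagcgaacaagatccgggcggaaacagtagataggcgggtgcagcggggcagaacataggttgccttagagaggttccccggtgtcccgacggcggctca
MAGT1: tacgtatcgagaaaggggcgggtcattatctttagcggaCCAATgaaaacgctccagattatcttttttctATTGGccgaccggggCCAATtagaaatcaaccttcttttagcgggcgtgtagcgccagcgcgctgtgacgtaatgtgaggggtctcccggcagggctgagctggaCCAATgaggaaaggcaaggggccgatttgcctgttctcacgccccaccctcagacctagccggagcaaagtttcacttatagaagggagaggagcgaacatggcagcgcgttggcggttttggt
DDOST: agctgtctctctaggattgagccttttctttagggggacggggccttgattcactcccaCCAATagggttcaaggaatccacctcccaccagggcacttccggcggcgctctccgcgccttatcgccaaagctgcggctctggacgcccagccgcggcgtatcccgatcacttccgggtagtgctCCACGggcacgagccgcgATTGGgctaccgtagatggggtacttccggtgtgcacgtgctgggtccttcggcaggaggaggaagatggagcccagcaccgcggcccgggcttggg
OSTC: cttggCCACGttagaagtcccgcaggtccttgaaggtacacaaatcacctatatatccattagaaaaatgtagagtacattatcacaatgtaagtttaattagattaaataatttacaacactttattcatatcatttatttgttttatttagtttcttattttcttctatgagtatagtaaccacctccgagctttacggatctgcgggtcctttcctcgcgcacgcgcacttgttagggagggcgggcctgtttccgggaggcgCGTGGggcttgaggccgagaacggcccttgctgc
The MAGT1 window held 4 copies of the CCAAT end, and DPAGT1 held neither. DDOST held 2 copies of the CCAAT end and 1 of the CCACG end. OSTC held only the latter, with 2 copies. STT3A, with 2, and DAD1, with 1, also held the CCAAT end, and RPN2 held neither end. In all, 5 of the 8 windows held the CCAAT end and 2 the CCACG end. The CCAAT end occurs in 34.6% and the CCACG end in 38.1% of all 35116 windows, so either is common. The full element, with 9 bases between both ends (0.0769% of windows), its second form, in which the complement of the first end lies 1 base before the other (0.0541%), the sequence TGACGTGG (0.729%) and the amino acid response sequence TGATGNAAN (3.61%) matched on neither strand of the 8 windows. Matches are descriptions of these letters and do not show binding.

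Tunicamycin raised most of these genes in most lines and lowered none. A gene is said to have risen or fallen where the Benjamini-Hochberg adjusted p from limma, over the 17191 genes tested, was under 0.05, with no minimum fold. Of the 70 pairs of gene and line, 58 were higher on tunicamycin, where 15.4% of all pairs of a gene and a line were higher, and 0 were lower, where 14% were. At an unadjusted p under 0.05, 64 pairs were higher and 0 lower, and the plain t-test of the methods likewise found 0 lower. All 10 rose in EV and S769F cells, where 18.2% and 16.9% of genes did, 9 in Q780* (19.9%), P336L (12%) and A414T cells (15.8%), 8 in WT cells (15.8%) and 3 in IRE1-DN cells (9.1%), the line with the fewest arrays. The median log2 change of the 10 genes was also lowest there, 0.23 against 0.41 to 0.60 in the other lines. Averaged over the lines, all 10 were higher (29.7% of genes were), with a median log2 change of 0.47 against -0.02 over all genes tested. As in any extract of whole cells, less RNA per cell and fewer cells with it cannot be told apart.

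**Figure D1:**
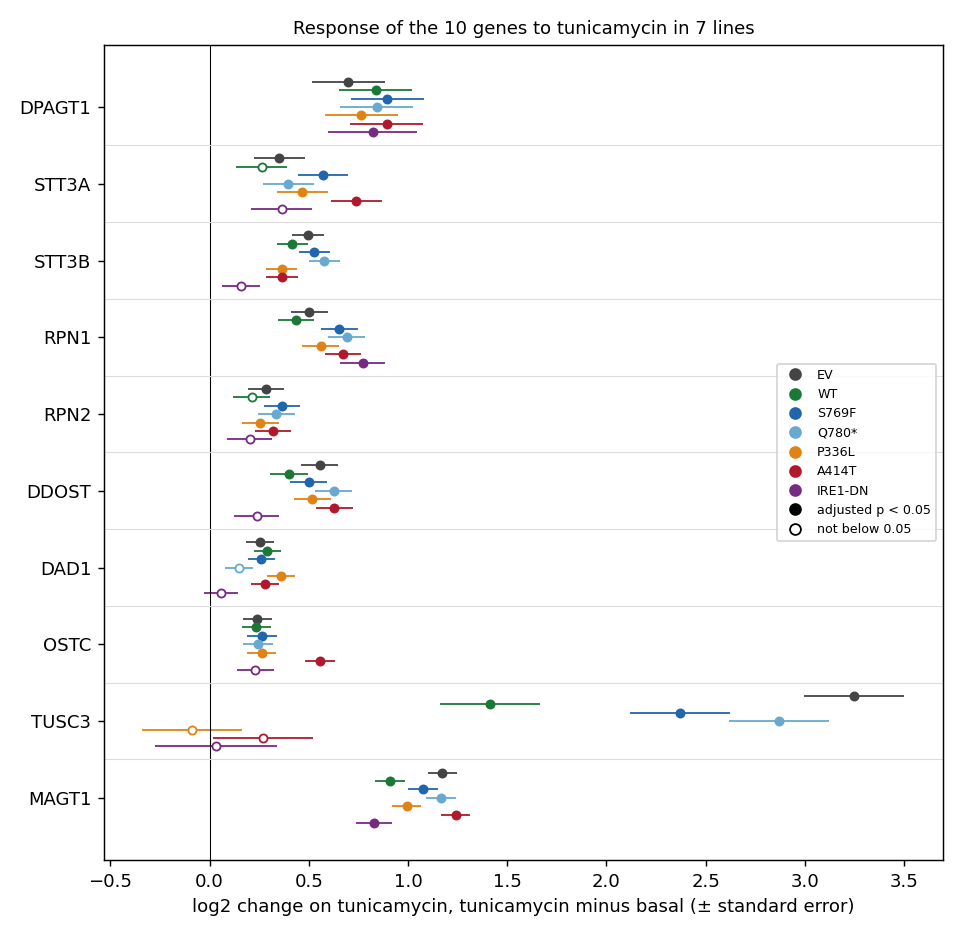
The log2 change on tunicamycin (horizontal axis, tunicamycin minus basal, with standard error) is plotted for each of the 10 genes (vertical axis) in the 7 lines (colours), filled where the adjusted p was under 0.05. DPAGT1, RPN1 and MAGT1 lie to the right of 0 in every line, whereas TUSC3 spreads from -0.09 in P336L to 3.25 in EV cells.

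DPAGT1, which catalyses the step that tunicamycin inhibits, rose in all 7 lines and by similar amounts, where 4.64% of genes rose in every line. Its log2 signal was 6.76, 6.51 and 6.99 on the basal EV arrays and 7.27, 7.54 and 7.53 with tunicamycin. In WT cells it was 6.93, 6.91 and 7.35, and then 7.97, 8.10 and 7.63. In both lines every array with tunicamycin lay above every basal array. The signal went from 6.72, 6.63 and 7.04 to 7.84, 7.79 and 7.44 in S769F cells and from 6.55, 6.63 and 6.94 to 7.61, 7.42 and 7.61 in Q780* cells. It went from 6.64, 7.24 and 7.42 to 7.76, 7.98 and 7.85 in P336L cells. The 2 cytosolic variants thus stood close to EV cells on the basal arrays, while replicate 1 of P336L lay apart from the other two. In A414T cells it was 6.76, 7.29 and 7.37, and then 7.96, 8.23 and 7.92. In IRE1-DN cells it was 6.64 and 6.87, and then 7.52 and 7.63. No line's basal and tunicamycin arrays overlapped. In single lines 17.7% (P336L) to 28.7% (IRE1-DN) of all genes were higher on tunicamycin without overlap. The changes ran from 0.70 in EV cells (standard error 0.184, adjusted p = 0.00337 from limma) to 0.89 in S769F and A414T cells (highest adjusted p = 0.000263), with 0.82 in IRE1-DN cells (standard error 0.225, adjusted p = 0.00797), and their mean over lines was 0.82 (standard error 0.072), a 1.77-fold rise. No line's response differed from that of EV cells by the interaction test. The differences were 0.06 to 0.19 with 95% intervals that reach from -0.47 to 0.73. After Benjamini-Hochberg adjustment the methods' t-test, which uses only the arrays compared, passed in S769F and Q780* cells and not in the other lines (adjusted p 0.0612 to 0.193). The call in IRE1-DN cells was lost without its basal replicate 2 (log2 change 0.71, adjusted p = 0.0946) or its tunicamycin replicate 3 (0.77, adjusted p = 0.0662).

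**Figure D2:**
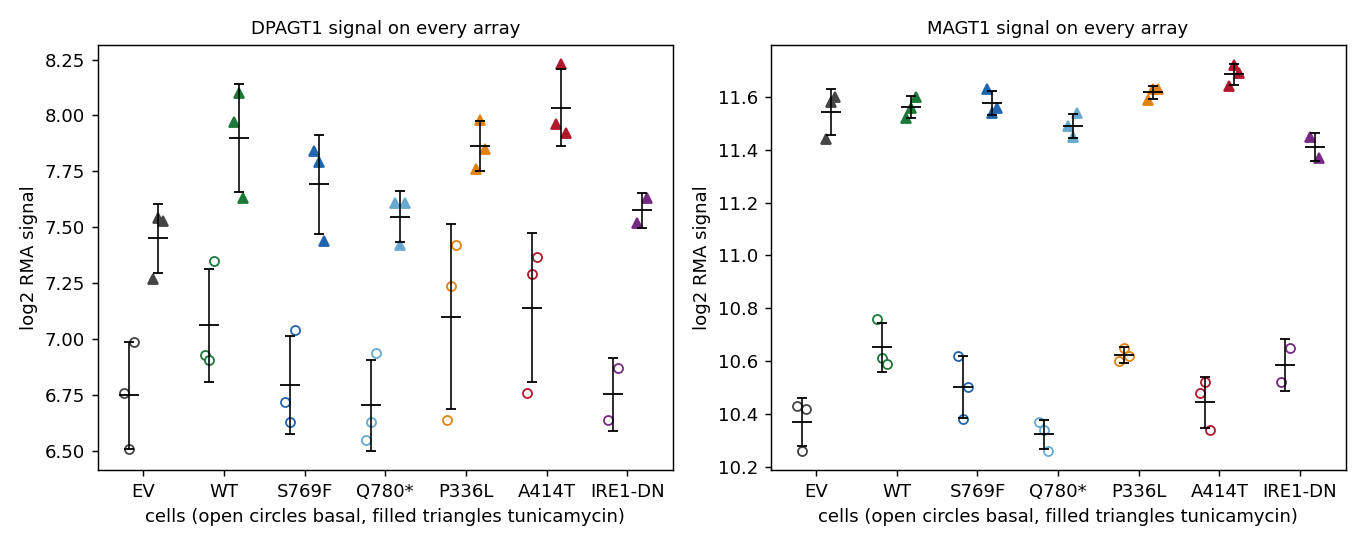
Log2 RMA signal (vertical axis) of DPAGT1 (left) and MAGT1 (right) is shown for every array of the 7 lines (horizontal axis), with open circles for basal arrays, filled triangles for tunicamycin and black bars for the group mean and SD. In each line the triangles lie above the circles, and MAGT1 on tunicamycin stays between 11.37 and 11.72.

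Both catalytic subunits rose in most lines. STT3A went from 9.98, 9.86 and 9.68 to 10.17, 10.28 and 10.12 on the EV arrays, a log2 change of 0.35 (standard error 0.127, adjusted p = 0.0342 from limma). STT3A also rose in S769F (0.57), Q780* (0.40), P336L (0.47) and A414T cells (0.74), and had changes of 0.26 in WT (adjusted p = 0.125) and 0.36 in IRE1-DN cells (adjusted p = 0.11) that did not pass. STT3B went from 11.45, 11.44 and 11.31 to 11.84, 11.89 and 11.96 in EV cells, a change of 0.50 (standard error 0.0789, adjusted p = 8.62e-06). It rose in 6 lines by 0.36 to 0.58, and its change in IRE1-DN cells was 0.16 (adjusted p = 0.31). The difference of that change from the EV response, -0.34 (95% interval -0.59 to -0.08), did not pass (adjusted p = 0.125). Averaged over lines, the change of STT3A exceeded that of STT3B by 0.04, which was within the spread between arrays (two-sided permutation test within lines, p = 0.552). In single lines the difference of the changes ran from -0.18 in Q780* to 0.37 in A414T cells. With a gene's probe sets averaged it was 0.21 (the same permutation test, p = 0.00266), and STT3B has a second, dim probe set (mean signal 4.01) that passed in none of the lines. The STT3A call in EV cells was lost without basal replicate 2 or 3 or tunicamycin replicate 1 or 2 (adjusted p 0.0618 to 0.149), and that in Q780* cells without basal replicate 2 or 3 or tunicamycin replicate 1 (0.0528 to 0.0789).

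Of the shared subunits, RPN1 and DDOST rose the most. RPN1, also called ribophorin I, was 10.62, 10.36 and 10.42 on the basal EV arrays and 10.96, 10.98 and 10.97 with tunicamycin, and it rose in all 7 lines, by 0.44 in WT to 0.77 in IRE1-DN cells (standard error 0.0914, and 0.112 in IRE1-DN, highest adjusted p = 0.000409 from limma). It is the one subunit of the 9 whose largest change was in IRE1-DN cells, although its response there did not differ from that of EV cells (0.27, adjusted p = 0.361). DDOST, the subunit also known as OST48, rose in 6 lines by 0.40 to 0.63. In IRE1-DN cells it was 11.67 and 11.62, and then 11.75 and 12.01, a change of 0.24 (adjusted p = 0.172). The 2 tunicamycin arrays of IRE1-DN thus lay further apart than the change itself is large. A second DDOST probe set did pass in IRE1-DN cells, with 0.65 (adjusted p = 6.09e-05), and over both sets 13 of 14 pairs of probe set and line were higher. The probes of this second set can also match other transcripts. RPN2, ribophorin II, rose in 5 lines by 0.26 to 0.37, and had changes of 0.21 in WT (adjusted p = 0.0861) and 0.20 in IRE1-DN cells (adjusted p = 0.25). Its brightest probe set is one whose probes can match other transcripts, and over its 3 sets 16 of 21 pairs were higher, with changes up to 0.64. DAD1, a small membrane subunit, rose in 5 lines by 0.26 to 0.36, and its changes of 0.15 in Q780* (adjusted p = 0.0978) and 0.06 in IRE1-DN cells (adjusted p = 0.751) did not pass. The RPN2 calls were lost in EV cells without basal replicate 1 or 2 or tunicamycin replicate 1 or 3 (adjusted p 0.0558 to 0.0958), in P336L cells without any array but tunicamycin replicate 2 (0.056 to 0.236), and without tunicamycin replicate 3 in Q780* (0.0519) and A414T cells (0.0511).

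OSTC, the subunit that ties the STT3A complex to the translocon, rose in 6 lines. The change was 0.24 to 0.26 in EV, WT, S769F, Q780* and P336L cells (standard error 0.0743, highest adjusted p = 0.0153 from limma). In A414T cells OSTC went from 11.41, 11.34 and 11.40 to 11.91, 12.01 and 11.89, a change of 0.56 (adjusted p = 3.82e-07). The A414T arrays with tunicamycin were the highest of all groups for this gene, together with 1 WT array at 11.92. The A414T response exceeded that of EV cells by 0.32 (95% interval 0.10 to 0.53), which did not pass (adjusted p = 0.0674), and passed without EV basal replicate 2 (0.37, adjusted p = 0.0391). In IRE1-DN cells the change was 0.23 (adjusted p = 0.0746). The calls in EV and WT cells were each lost without replicate 2 of either condition (adjusted p 0.0502 to 0.101), and that in Q780* cells without basal replicate 2 (0.0571). A fit on only the arrays compared, with fewer arrays to estimate the spread, lost 18 of the 58 calls (adjusted p 0.0508 to 0.165), all of them among STT3A, STT3B, RPN2, DAD1 and OSTC.

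MAGT1, 1 of the 2 alternative oxidoreductases of the STT3B complex, rose in all 7 lines. It was 10.43, 10.26 and 10.42 on the basal EV arrays and 11.44, 11.58 and 11.60 with tunicamycin, a change of 1.17 (2.25-fold, standard error 0.0739, adjusted p = 2.9e-13 from limma). In A414T cells it went from 10.48, 10.52 and 10.34 to 11.64, 11.72 and 11.69, a change of 1.24. In IRE1-DN cells it went from 10.52 and 10.65 to 11.45 and 11.37, a change of 0.83 (standard error 0.0905). These are the highest and the lowest of the 7 changes, and no basal array of any line reached the lowest array with tunicamycin. The IRE1-DN response differed from that of EV cells by -0.35 (95% interval -0.58 to -0.11, adjusted p = 0.0868) and did not pass. All 3 MAGT1 probe sets rose in all 7 lines, 21 of 21 pairs, by 0.77 to 1.65.

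TUSC3, the other oxidoreductase of the STT3B complex, behaved differently from line to line. On the EV arrays its log2 signal was 4.44, 4.31 and 4.34 under basal conditions and 7.29, 8.14 and 7.41 with tunicamycin. On the WT arrays it was 4.38, 4.12 and 4.19, and then 5.50, 5.82 and 5.61. Both lines started near the bottom of the signals and rose, EV cells much further. In S769F cells it went from 4.77, 5.15 and 6.08 to 7.64, 7.80 and 7.67. In Q780* cells it went from 4.83, 4.36 and 5.32 to 7.62, 7.87 and 7.63. The cytosolic variants thus reached the level of EV cells on tunicamycin, from scattered basal values. In P336L cells it was 6.99, 7.75 and 8.05 without and 7.41, 7.79 and 7.33 with the drug. In A414T cells it was 3.91, 3.84 and 3.88, and then 4.01, 4.25 and 4.19. In IRE1-DN cells it was 4.00 and 4.02, and then 4.09 and 4.00. P336L cells were therefore as high without tunicamycin as EV cells were with it, on the brightest probe set that is read here. On that set, no array of A414T or IRE1-DN cells reached the 40th percentile of all probe sets, 4.23 to 4.31 depending on the array.

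The log2 change of TUSC3 was 3.25 in EV cells (standard error 0.252, adjusted p = 2.48e-11 from limma), 2.87 in Q780*, 2.37 in S769F and 1.41 in WT cells (adjusted p = 5.67e-05). It was -0.09 in P336L (adjusted p = 0.869), 0.27 in A414T (adjusted p = 0.488) and 0.03 in IRE1-DN cells (adjusted p = 0.972). Relative to EV cells, the response was lower by the interaction test in WT (-1.84, standard error 0.357, adjusted p = 0.00728), P336L (-3.34, adjusted p = 2.17e-06), A414T (-2.98, adjusted p = 2e-06) and IRE1-DN cells (-3.22, standard error 0.399, adjusted p = 2.94e-06). Its difference in S769F (-0.88, 95% interval -1.61 to -0.15, adjusted p = 0.579) and Q780* cells (-0.38, -1.11 to 0.35, adjusted p = 0.855) did not pass. These 4 were all of the 60 interactions of the 10 genes that passed, where 2.46% of all pairs did, and 0.349% of genes differed from EV cells in at least 4 of the 6 lines. The share of all genes whose response was higher and lower than in EV cells was 0.145% and 0.355% in WT cells. In S769F cells it was 0.18% and 0.314%, in Q780* cells 0.401% and 0.518%, and it was 0.186% and 0.628% in P336L, 2.29% and 4.54% in A414T and 1.38% and 3.82% in IRE1-DN cells. The comparisons share the EV arrays. In order of mean level the groups ran from Q780*, S769F and EV cells on tunicamycin through P336L cells without and with it (7.71 to 7.51), whose arrays overlapped, then with a gap to WT cells on tunicamycin at 5.64. Basal S769F (5.33), Q780* (4.84), EV (4.36) and WT cells (4.23) followed, each overlapping its neighbour, and then A414T and IRE1-DN cells in both conditions (4.15 to 3.88).

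**Figure D3:**
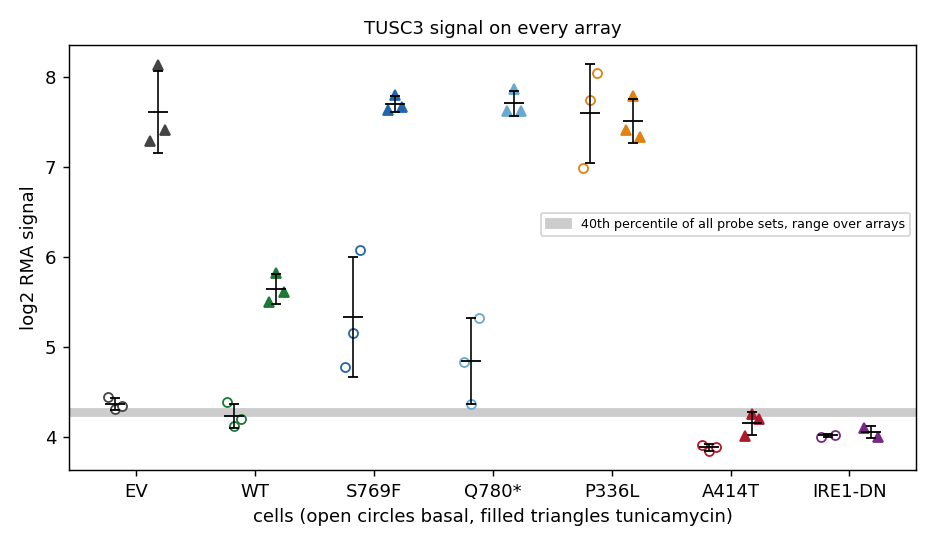
Log2 RMA signal of TUSC3 (vertical axis) is shown for every array of the 7 lines (horizontal axis), with open circles for basal arrays, filled triangles for tunicamycin, black bars for the group mean and SD, and a grey band for the 40th percentile of all probe sets over the arrays (4.23 to 4.31). EV, WT, S769F and Q780* cells rise, P336L cells are high in both conditions, and A414T and IRE1-DN cells stay at or below the band.

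TUSC3 has 5 probe sets, of which 2 passed the filter, and the probes of both can also match other transcripts. The second gave log2 changes of 2.68 in EV, 1.44 in WT, 1.69 in S769F and 2.05 in Q780* cells, which passed, and of 0.59 in P336L (adjusted p = 0.126), 0.18 in A414T and 0.10 in IRE1-DN cells, which did not. On it the responses of P336L (-2.09), A414T (-2.50) and IRE1-DN cells (-2.58) differed from that of EV cells, and that of WT cells (-1.24, adjusted p = 0.232) did not pass. Its basal P336L arrays read 5.77, 6.79 and 7.01 (mean 6.52), against 6.88 to 7.58 (mean 7.12) in EV cells on tunicamycin. Its A414T arrays read 4.06, 4.27 and 4.12, and then 4.14, 4.33 and 4.54. Of these, 4.33 and 4.54 lay above the filter level of 4.23 to 4.31, and the IRE1-DN arrays (3.89 to 4.16) lay below it. The 3 remaining sets were too dim to be tested. They did not follow 1 pattern. One read 3.68 to 3.90 on the basal and 4.06 to 4.16 on the tunicamycin arrays of EV cells, and 3.96 to 4.33 and 3.80 to 4.16 in P336L cells. Another read 3.64 to 4.00 and 3.74 to 3.92 in EV cells, and 3.56 to 4.34 and 3.94 to 4.11 in P336L cells. The third read 3.26 to 3.77 and 3.55 to 3.96 in EV cells, and 3.53 to 3.76 and 3.55 to 3.68 in P336L cells. In EV cells basal and tunicamycin arrays were thus apart on the first set and overlapped on the other 2. S769F (3.53 to 3.86, then 4.01 to 4.26) and Q780* arrays (3.78 to 3.94, then 4.10 to 4.12) were also apart on the first. Those of WT, P336L, A414T and IRE1-DN cells overlapped on it. Beyond the first set, Q780* arrays were higher without overlap on the third, and IRE1-DN arrays lower without overlap on the remaining one. Of all genes tested, 23.3% in EV, 21.6% in S769F and 23.8% in Q780* cells were higher on tunicamycin without overlap. The share lower without overlap was not computed. With probe sets that can match other transcripts left out, TUSC3 could not be tested, and 0 interactions of the 10 genes passed. Averaged over lines, its change exceeded that of MAGT1 by 0.39 on the log2 scale (two-sided permutation test within lines, p = 0.107), from 2.08 in EV to -1.08 in P336L cells. With probe sets averaged the difference turned to -0.64 (p = 1e-05, the smallest that 100000 permutations can give). Signals near 4 lie at the bottom of the scale, and differences from them are those measured, not ratios of transcripts.

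Without tunicamycin, 2 subunits stood above EV cells in every one of the 6 other lines, and the rest mostly did not differ. Of 60 pairs of gene and line, 19 were higher than in EV cells (7.44% of all pairs were) and 0 lower (5.11%). At an unadjusted p under 0.05 there were 25 higher and 0 lower pairs, and the methods' t-test at that threshold, unadjusted, had 2 lower. By line, 4 genes were higher in WT (4.9% of all genes were higher and 3.68% lower), 3 in S769F (4.23% and 1.93%), 2 in Q780* (3.36% and 1.83%), 4 in P336L (6.53% and 2.58%), 3 in A414T (10.4% and 8.19%) and 3 in IRE1-DN cells (15.2% and 12.4%). DAD1 was 10.78, 10.67 and 10.72 on the EV arrays, and between 10.91 and 11.55 on the 17 arrays of the other lines. OSTC was 10.73, 10.59 and 10.79 in EV cells and 11.14 to 11.62 elsewhere. No array of another line overlapped with EV cells for either gene, a trait whose share over all genes was not computed. By adjusted p, 1.32% of genes were higher in all 6 lines. All 6 comparisons use the same 3 EV arrays and are not independent.

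DAD1 exceeded EV cells by 0.81 in A414T (1.75-fold, standard error 0.069, adjusted p = 1.56e-10 from limma), 0.60 in IRE1-DN, 0.52 in P336L, 0.43 in WT and 0.26 in both S769F (adjusted p = 0.0154) and Q780* cells (adjusted p = 0.0168). OSTC exceeded them by 0.90 in WT (1.87-fold, standard error 0.0743, adjusted p = 3.66e-10), 0.81 in P336L, 0.68 in A414T, 0.64 in S769F, 0.57 in IRE1-DN and 0.52 in Q780* cells (highest adjusted p = 1.46e-05). The order of the lines was thus not the same for both genes. Replicate numbers paired the arrays of WT, S769F and Q780* with those of EV cells, and with the number as a block on the arrays compared DAD1 did not pass in WT (adjusted p = 0.0604), S769F (0.227) and Q780* cells (0.338), nor OSTC in Q780* cells (0.0912). These calls were also lost on the same arrays without the block (adjusted p 0.066 to 0.431). The ACTB 3′ minus 5′ difference was 1.20 to 1.66 on the basal S769F and 1.43 to 1.53 on the basal Q780* arrays, below the 1.76 to 2.03 of EV cells, and with it as a covariate DAD1 lost its calls in S769F (0.22, adjusted p = 0.12) and Q780* cells (0.23, adjusted p = 0.0718). Those in S769F cells were lost without EV replicate 2 or S769F replicate 3 (0.0639 to 0.088), and those in Q780* cells without EV replicate 2 or 3 or Q780* replicate 3 (0.0561 to 0.0934).

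**Figure D4:**
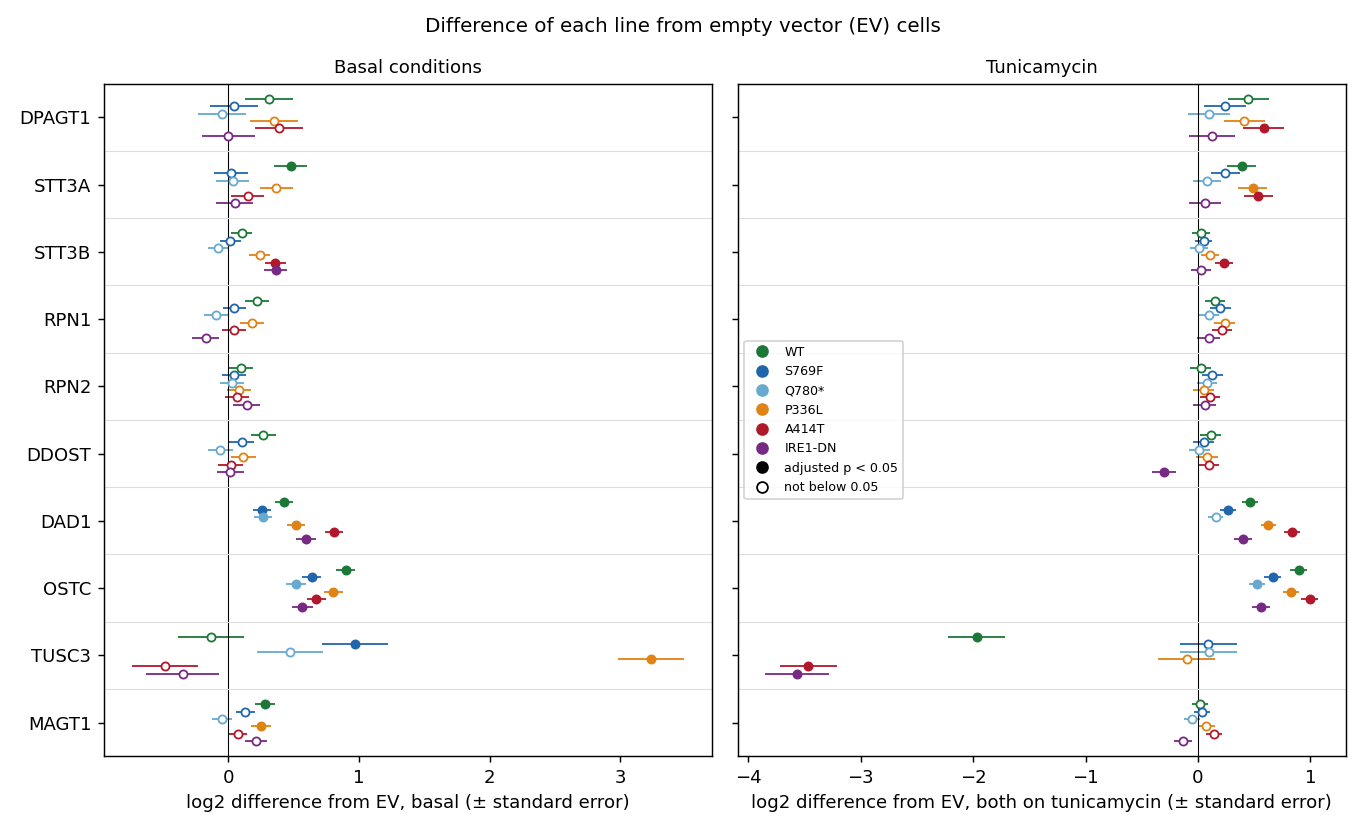
The log2 difference of each line from EV cells (horizontal axis, with standard error) is plotted for the 10 genes (vertical axis) under basal conditions (left) and on tunicamycin (right), with lines as colours and filled points where the adjusted p was under 0.05. DAD1 and OSTC lie to the right of 0 in all 6 lines in both panels, and TUSC3 has the widest spread, from -0.48 to 3.24 on the left and from -3.57 to 0.10 on the right.

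The other basal differences that passed were in 1 line (STT3A) or 2 lines (TUSC3, STT3B and MAGT1) each. TUSC3 was higher in P336L cells by 3.24 (standard error 0.252, adjusted p = 5.52e-11 from limma) and in S769F cells by 0.97 (adjusted p = 0.0136), and on the second probe set by 2.08 and 1.03. The S769F call rested on its replicate 3, at 6.08, without which the difference was 0.60 (adjusted p = 0.176). It was also lost without EV replicate 2 (0.95, adjusted p = 0.0524), with the replicate block (adjusted p = 0.135) and with the ACTB covariate (0.69, adjusted p = 0.167). The basal TUSC3 values of A414T (-0.48, adjusted p = 0.223) and IRE1-DN cells (-0.35, adjusted p = 0.411) lay below those of EV cells, which were themselves at the 40th percentile. STT3A was 10.42, 10.27 and 10.26 in WT cells, higher than in EV cells by 0.48 (adjusted p = 0.0125), and the call was lost without EV replicate 3 (0.40, adjusted p = 0.0915) or WT replicate 1 (0.43, adjusted p = 0.0749). STT3B was higher by 0.36 in both A414T (adjusted p = 0.000878) and IRE1-DN cells (adjusted p = 0.00181), the latter lost without IRE1-DN replicate 3 (0.30, adjusted p = 0.0573). MAGT1 was higher by 0.28 in WT (adjusted p = 0.0109, and 0.157 with the replicate block) and 0.25 in P336L cells (adjusted p = 0.0247). The WT call was lost without EV replicate 2 or WT replicate 1 (adjusted p 0.0949 and 0.0983), and the P336L call without EV replicate 2 or P336L replicate 2 or 3 (0.0688 to 0.177). With a gene's probe sets averaged, the MAGT1 and STT3B calls did not pass (adjusted p 0.0502 to 0.699). DPAGT1 passed in none of the lines, with differences of -0.04 to 0.39 (lowest adjusted p = 0.162), although it did in P336L (0.58, adjusted p = 0.0469) and A414T cells (0.58, adjusted p = 0.0348) without their replicate 1, and neither did RPN1, RPN2 or DDOST.

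On tunicamycin, OSTC was again higher than in EV cells in all 6 lines and DAD1 in 5. In all, 16 of 60 pairs were higher (7.15% of all pairs were) and 4 lower (8.52%), and 1.11% of genes were higher in all 6 lines. By line, WT cells had 3 genes higher and 1 lower (5.65% and 6.5% of all genes), S769F cells 2 and 0 (4.64% and 4.41%), Q780* cells 1 and 0 (4.92% and 4.75%), and there were 3 and 0 in P336L (5.89% and 6.32%), 5 and 1 in A414T (10.3% and 14.6%) and 2 and 2 in IRE1-DN cells (11.5% and 14.5%). OSTC was 10.89, 11.03 and 10.93 on the EV arrays and 11.42 to 12.01 on the others, with differences of 0.52 in Q780* to 0.99 in A414T cells (standard error 0.0743, highest adjusted p = 7.3e-06 from limma). DAD1 was 10.94, 11.05 and 10.95 on the EV arrays and 11.06 to 11.92 on the others, and it was higher by 0.27 in S769F to 0.83 in A414T cells. Its difference in Q780* cells, 0.16, did not pass (adjusted p = 0.189). A414T cells had the highest mean of both genes. The S769F call of DAD1 was lost without replicate 1 of EV (adjusted p = 0.0507) or of S769F cells (0.0627).

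TUSC3 on tunicamycin was lower than in EV cells in WT (-1.97, adjusted p = 1.1e-06 from limma, and 0.0547 by the methods' t-test), A414T (-3.47, adjusted p = 5.45e-12) and IRE1-DN cells (-3.57, adjusted p = 1.82e-11). In S769F, Q780* and P336L cells it differed by 0.09, 0.10 and -0.10 (lowest adjusted p = 0.883). STT3A was higher in A414T (0.54, adjusted p = 0.00174), P336L (0.49, adjusted p = 0.00898) and WT cells (0.39, adjusted p = 0.0408). The WT call was lost with the replicate block on the arrays compared (adjusted p = 0.0656), with the ACTB covariate (0.0732) and without any 1 of the 6 arrays (0.0565 to 0.17), and the P336L call without P336L replicate 2 (0.41, adjusted p = 0.0667). A414T cells had 2 further differences, DPAGT1 at 0.58 (7.96, 8.23 and 7.92 against 7.27, 7.54 and 7.53, adjusted p = 0.0178) and STT3B at 0.23 (adjusted p = 0.0294). The first was lost without A414T replicate 2 (0.49, adjusted p = 0.0911) or EV replicate 1 (0.50, adjusted p = 0.0877), and the second without replicate 2 or 3 of A414T or 1 or 2 of EV cells (0.0538 to 0.111). DDOST was lower in IRE1-DN cells (-0.30, adjusted p = 0.0329), a call that was lost without IRE1-DN replicate 2 (-0.17, adjusted p = 0.455) or any 1 EV array (0.0571 to 0.0807), and the second DDOST probe set gave -0.16 (adjusted p = 0.35). MAGT1, RPN1 and RPN2 passed in none of the lines, with differences between -0.13 and 0.24.

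The other genes of N-glycosylation were read from 7 lists, of which 56 of 62 genes were measured and tested. On tunicamycin, 137 of their 392 pairs of gene and line were higher and 41 lower, a share of higher pairs that stood between the 58 of 70 above and the 15.4% of all genes. Of all pairs of a gene and a line, 14% were lower. The cycle of glucose trimming and glycoprotein folding had 45 of 63 pairs higher and 1 lower. In it CALR and PDIA3, the lectin chaperone calreticulin and the disulfide isomerase that works with it, rose in all 7 lines, by 1.15 and 1.14 on average (standard error 0.0502 and 0.0503). The 3 remaining subunits of the transferase had 12 of 21 pairs higher and 0 lower. Among them KRTCAP2, a subunit of the STT3A complex, changed by 0.35 on average and TMEM258, a small shared subunit, by 0.22.

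**Figure D5:**
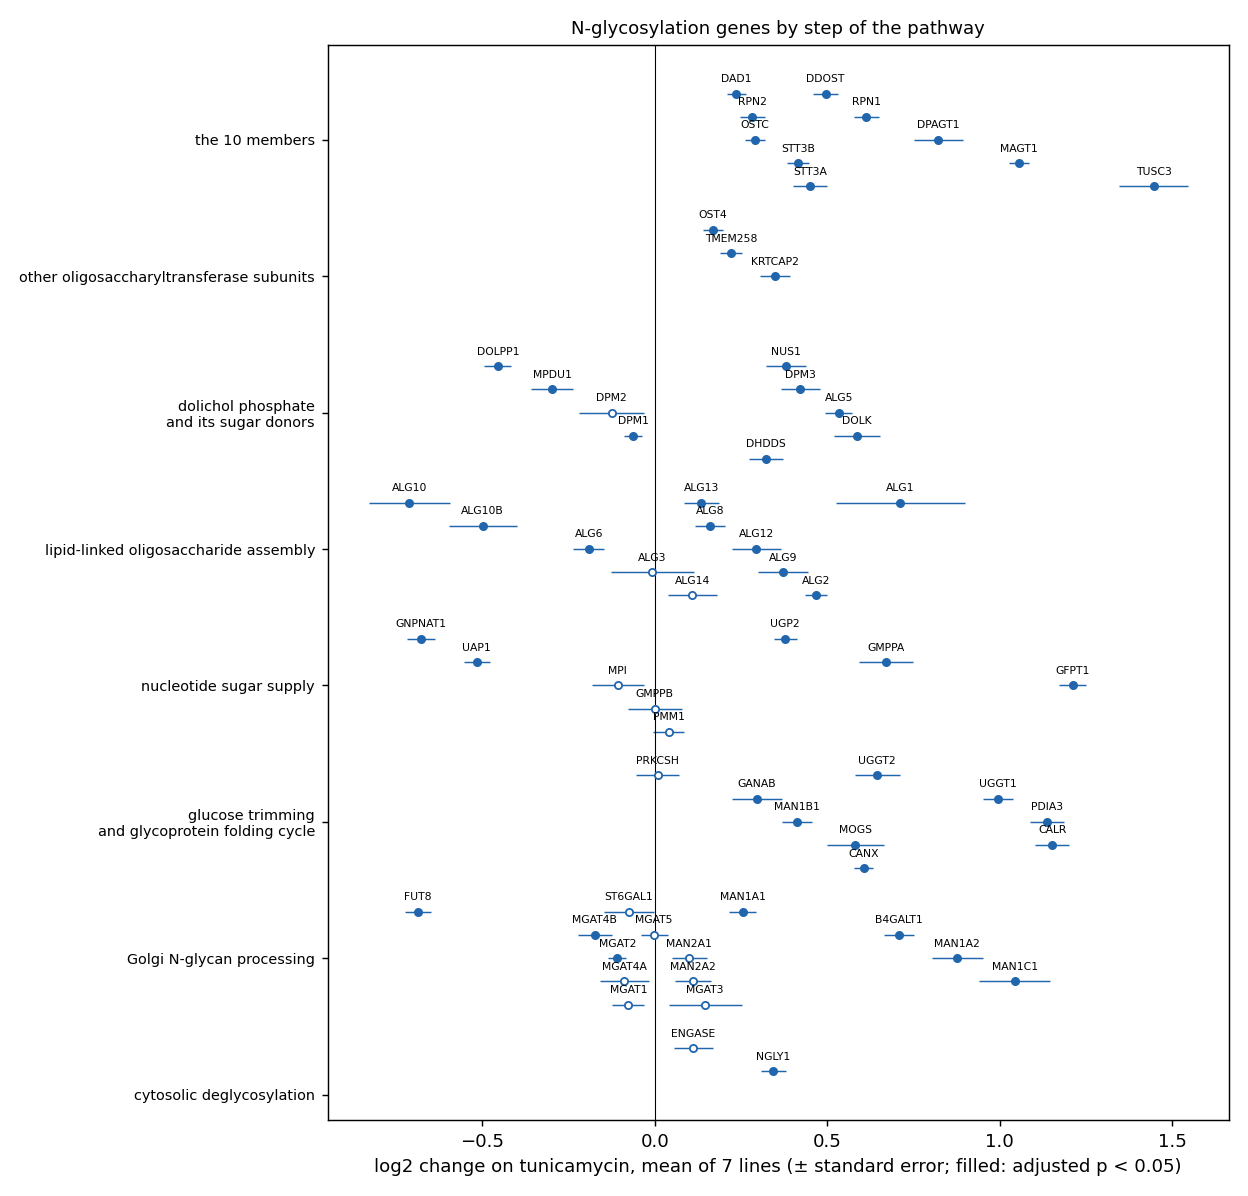
The log2 change on tunicamycin averaged over the 7 lines (horizontal axis, with standard error) is plotted for each measured gene, in rows by step of the pathway, filled where the adjusted p was under 0.05. The 10 members and the folding cycle lie at or to the right of 0, as do the other transferase subunits and the 2 genes of cytosolic deglycosylation, and the remaining 4 lists hold genes on both sides.

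The supply of nucleotide sugars and of dolichol phosphate, on which DPAGT1 and later steps draw, was mixed. In the supply of nucleotide sugars 19 of 56 pairs were higher and 14 lower, where 15.4% and 14% of all pairs of a gene and a line were. GFPT1, which opens the pathway to UDP-N-acetylglucosamine, rose in all 7 lines, by 1.21 on average (2.32-fold, standard error 0.0389, adjusted p = 9.43e-22 from limma). GNPNAT1 and UAP1, which act later on the same route, fell by 0.68 and 0.52 on the log2 scale on average, the first in 6 lines and the second in 7. GMPPA, a partner of GDP-mannose synthesis, rose by 0.67 on average. Of the genes for dolichol phosphate and its sugar donors, 21 of 63 pairs were higher and 8 lower, the lower share being near that of all pairs. DOLK, the dolichol kinase, changed by 0.59 on average and ALG5, which makes dolichol phosphate glucose, by 0.53. DOLPP1, which recycles dolichol pyrophosphate, changed by -0.46 and MPDU1, needed for the use of dolichol-linked sugars, by -0.30. Under basal conditions DOLK exceeded EV cells by 0.67 in IRE1-DN cells (adjusted p = 0.00693), the largest difference of that list, and GNPNAT1 by 1.11 in A414T cells (adjusted p = 1.04e-09).

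The enzymes that extend the lipid-linked oligosaccharide after DPAGT1 moved both ways, with 11 of 77 pairs higher and 5 lower, where 15.4% and 14% of all pairs were. Averaged over lines, 6 of the 11 genes were higher and 3 lower, where 29.7% and 28.6% of all genes were. ALG2, a mannosyltransferase, rose in all 7 lines, by 0.47 on average. ALG1, which adds the first mannose, changed by 0.71 on average (adjusted p = 0.00155 from limma) but passed in no single line, and it was lower than in EV cells in basal IRE1-DN cells (-2.15, adjusted p = 0.00226). ALG10 and ALG10B, near-identical glucosyltransferases whose probes may be shared, fell by 0.71 and 0.50 on the log2 scale on average. In the Golgi list 24 of 98 pairs were higher and 13 lower, where 15.4% and 14% of all pairs were, so the lower share was near that of all pairs. The mannosidases MAN1C1 and MAN1A2 changed by 1.04 and 0.88 on average, FUT8, the core fucosyltransferase, by -0.69 and MGAT4B, a branching transferase, by -0.17. MAN1C1 was lower than in EV cells in all 6 lines under basal conditions, most in A414T cells (-2.69, adjusted p = 2.75e-09). NGLY1, which removes N-glycans from proteins in the cytosol, rose in 5 lines, by 0.34 on average, and was -0.41 against EV cells in basal IRE1-DN cells (adjusted p = 0.00221), where TMEM258 was -0.27 (adjusted p = 0.0201) and MAN1B1, an ER mannosidase, 0.96 (adjusted p = 2.91e-07). The comparisons of these genes with EV cells gave 44 higher and 22 lower pairs under basal conditions and 53 and 33 on tunicamycin, in which 7.44% and 5.11%, and 7.15% and 8.52%, of all pairs were called.

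Over the 14 group means, the genes whose signal ran most like that of DPAGT1 were SLC33A1, an ER acetyl-CoA transporter (Pearson's r = 0.983), TRAM1, a translocon protein (0.982), SDF2L1, an ER chaperone component (0.978), NUCB2 (0.975) and SEC63, a translocation factor (0.974). The 14 means come from arrays normalized together and all contain the step from basal conditions to tunicamycin, so these values describe and do not test. Of the members, RPN1 (0.961), MAGT1 (0.941) and STT3A (0.934) were most like DPAGT1, OSTC (0.705) and DAD1 (0.686) less so, and TUSC3 the least (0.36).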

How the data were processed

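Total RNA of 40 samples was hybridised to 1-colour Affymetrix PM arrays, and the deposited values are log2 signals that the authors normalized with RMA over all arrays. The RMA version and annotation build were not given in the sources used here, and the depth of an array does not apply, so the number of arrays limits the precision. Symbols came from the platform annotation, which named 40920 of 54715 probe sets with 1 gene. A gene was kept where its brightest probe set reached an array's 40th percentile on at least 2 arrays. Group means were fitted with limma 3.58.1 in R 4.3.3 over all arrays (26 residual degrees of freedom), with Benjamini-Hochberg adjustment over 17191 genes. The methods' plain t-test, other filters, summaries, covariates, folds and left-out arrays were alternatives. The script was tested on simulated data. Replicate numbers paired the arrays in 5 of 16 comparisons (every pair's deviations correlated above 0.1). Pathway genes were named as the 2 highest and 2 lowest mean responses that passed and the largest basal difference of each list. The genes and lists were chosen with earlier results of these data known. Of 62 pathway genes, 6 were not analysed here. Sequences came from RefSeq.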

Additional observations from a re-analysis of the deposited data

Results flagged for a closer look

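The change on tunicamycin differed from that of EV cells, by limma's interaction test, for 4 lines in TUSC3 and for 4 single pairs among the other N-glycosylation genes. The differences for TUSC3 were -1.84 in WT, -3.34 in P336L, -2.98 in A414T and -3.22 in IRE1-DN cells. P336L cells differ from A414T and IRE1-DN cells in level, with basal signals of 6.99 to 8.05 against 3.84 to 4.02. GFPT1 rose more in A414T cells (1.46) than in EV cells (0.93), a difference of 0.53 (adjusted p = 0.0172 from limma). The remaining 3 of the genes named above were in IRE1-DN cells. GNPNAT1 changed by -0.30 there against -0.87 in EV cells (difference 0.57, adjusted p = 0.039), MAN1B1 by -0.08 against 0.61 (difference -0.69, adjusted p = 0.0158), and MAN1C1 by -0.29 against 1.5 (difference -1.79, adjusted p = 0.00776). The ACTB 3′ minus 5′ difference of the 2 basal IRE1-DN arrays, 1.07 and 1.08, lay below that of all other arrays, and with that difference as a covariate the TUSC3 value in IRE1-DN cells was -2.85 (adjusted p = 5.7e-05). Its part in the GNPNAT1, MAN1B1, MAN1C1, UGP2, MGAT2 and PMM1 values was not tested.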

How the results depend on the processing

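Of the 58 pairs of gene and line that were higher on tunicamycin, 25 were at least 1.5-fold and 8 at least 2-fold, 40 passed in fits on only the arrays compared and 39 by the plain t-test with adjusted p-values, and 55 to 58 did with 1 array left out. The 19 pairs higher than EV cells under basal conditions became 9 on only the arrays compared, 9 by the t-test, 8 at 1.5-fold, 1 at 2-fold and 14 to 22 with 1 array left out. The 0 lower pairs there became 2 with the bioB spike signal as a covariate, 1 on only the arrays compared, 1 by the adjusted t-test and 2 by the t-test at p under 0.05. On tunicamycin the 16 pairs higher than EV cells became 6 at 1.5-fold, 0 at 2-fold and 12 to 17 with 1 array left out, and the 4 lower became 1 without x_at probe sets, 2 by the adjusted t-test and 3 to 4 with 1 array left out. The 4 interactions became 7 with a trended, robust fit, 0 without x_at probe sets, where TUSC3 was not tested, and 4 to 5 with 1 array left out. The t-test was not run for interactions. For the other pathway genes the 137 higher and 41 lower pairs became 81 and 21 by the adjusted t-test, 79 and 21 at 1.5-fold, 29 and 2 at 2-fold, and 128 to 142 and 38 to 45 with 1 array left out. The mean change of DPAGT1 was 0.79 to 0.85 with 1 array left out. With probe sets averaged, the change of STT3A over STT3B went from 0.04 to 0.21 (permutation p = 0.00266), and that of TUSC3 over MAGT1 turned from 0.39 to -0.64 (permutation p = 1e-05). With 1 array left out they were 0.01 to 0.07 and 0.34 to 0.44. Dim probe sets enter the average of a gene's probe sets, and the causes of these shifts were not tested.

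With the replicate block over all arrays, 58 pairs were higher on tunicamycin and 22 higher than EV cells under basal conditions. A block on only the arrays compared was fitted in the 5 paired comparisons, and the other comparisons kept the main fit. Together these gave 13 pairs higher than EV cells under basal conditions, and 15 higher and 4 lower on tunicamycin. This block on only the arrays compared changed no call beside the losses named above. The block over all arrays lost no call. With it STT3B in P336L (adjusted p = 0.0353 from limma), DDOST in WT (0.0385) and MAGT1 in IRE1-DN cells (0.0459) also passed under basal conditions. The crossed pairing of the IRE1-DN arrays, chosen after seeing the data, changed no call on tunicamycin in IRE1-DN cells. It rests on 2 arrays per condition and does not test the calls of the other lines.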

Other observations

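TUSC3 was compared with all genes over the 14 group means, a choice made after its values were seen. The most alike were CBLIF (Pearson's r = 0.929), OGFOD3 (0.877), NACAD (0.865), MTUS1 (0.862) and PELI1 (0.861). The group means of CBLIF spanned only 4.55 to 5.11, and the 14 means share arrays that were normalized together. MAN1C1 was also lower than in EV cells in all 6 lines on tunicamycin, by -4.44 to -1.98 on the log2 scale.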
